A study of Mus musculus with 4 samples.

Results

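The comparison set donor T cells from recipients of CD226-/- TIGIT-/- regulatory T (Treg) cells, called the double-knockout library, against those from recipients of CD226+/+ TIGIT-/- Treg cells, called the TIGIT-knockout library. Each is 1 library of droplet single-cell RNA, both were sequenced on lane 4, and both lack TIGIT in the transferred Treg cells, so CD226 in those cells is the labelled difference. In the double-knockout library 6604 cells fell in the 3 classes compared, and in the TIGIT-knockout library 6464, which makes 13068 of the 36140 cells kept in the series. A class is a set of cells of 1 origin. On the log2 scale, the ratio of antibody counts for CD45.1 over those for CD45.2 (each plus 1) was below -0.6 in Treg-origin cells. It was above 2.2 in conventional cells, which were called CD4 or CD8 by whichever of Cd4 or Cd8a plus Cd8b1 had more UMIs, the molecule counts of this assay. Cells with fewer than 500 genes or over 10% mitochondrial UMIs were left out.

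BALB/c recipients had been irradiated with 900 cGy and given T cell-depleted bone marrow of CD45.1+ CD45.2+ C57BL/6 mice together with Foxp3-GFP+ CD25hi Treg cells of CD45.2+ donors. Conventional CD4 and CD8 T cells from CD45.1+ wild-type C57BL/6 mice followed on day 2 and set off graft-versus-host disease. H-2Kb+ TCRb+ cells, that is T cells of donor type, were sorted from the spleen 8 days after induction, with a pool of 3 behind each library. In both libraries the conventional cells are therefore wild type for CD226 and TIGIT, and a difference in them is one between hosts of different Treg cells or between 2 libraries. Those cannot be told apart. A second pair of libraries on lane 3, CD226 knockout over wild type with TIGIT present, shares no library with this one, and its values are given beside the main results. With 1 library per genotype there is no spread between samples and no test, and all intervals are 95% intervals that hold counting error only.

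CD226 and TIGIT are paired receptors on T cells and natural killer cells that compete for the ligands CD155 and CD112, which many stressed or activated cells carry. CD226 adds to activation and to interferon-gamma production, while TIGIT dampens it, and in Treg cells TIGIT marks strongly suppressive cells. In graft-versus-host disease, donor conventional T cells attack host tissue and Treg cells restrain them.

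Transcripts of the deleted gene and of class markers were looked at first. Cd226 in Treg-origin cells had 9 UMIs, or 4.39 CPM (UMI counts scaled to one common total per class), in the double knockout and 68 UMIs, or 32.5 CPM, in the TIGIT knockout. The ratio was 0.135 [0.0593, 0.272]. In wild-type conventional cells Cd226 had ratios of 1.04 [0.970, 1.11] in CD4 and 1.01 [0.965, 1.06] in CD8 cells. Tigit had 12 and 18 UMIs in Treg-origin cells of the double and the TIGIT knockout, and as the reads count only 3' ends these UMIs do not check the deletion. Foxp3, the defining factor of Treg cells, stood at 58.1 CPM in Treg-origin cells and 1.18 CPM in conventional CD4 cells of the double knockout, against 47.3 and 1.47 CPM in the TIGIT knockout. Sex-linked transcripts gave a second check. Xist, which female cells transcribe, had a UMI in 89.4% of Treg-origin cells of the double knockout and 88.3% in the TIGIT knockout, against at most 1.1% in the conventional classes. A Y-linked UMI was found in 2.93% of Treg-origin cells of the double knockout and 2.16% in the TIGIT knockout, against 58.3% to 70.2% in the conventional classes.

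The Treg-origin class held 376 cells in the double knockout and 462 in the TIGIT knockout, with 2049179 and 2093930 UMIs in all. Conventional CD4 cells numbered 2813 and 3100 (25441326 and 25778805 UMIs), and conventional CD8 cells 3415 and 2902 (39929802 and 30743828 UMIs). The double-knockout library was deeper, with a median of 8055 UMIs per kept cell against 6972 in the TIGIT knockout. CD8 cells made up 54.8% [53.6, 56.1] of resolved conventional cells in the double knockout and 48.4% [47.1, 49.6] in the TIGIT knockout, a gap larger than counting error. Unresolved cells, which are outside that share, were 24.5% of conventional cells in the double knockout and 31.6% in the TIGIT knockout, and their part in the gap was not tested. Treg-origin cells made up 4.36% [3.94, 4.81] of cells assigned to a donor class in the double knockout and 5.0% [4.56, 5.46] in the TIGIT knockout. Those intervals overlap, which does not show that the shares were alike. In the second pair the CD8 share was 45.6% [44.3, 46.9] in the CD226 knockout and 43.3% [41.9, 44.7] in wild type. The Treg-origin share there was 4.11% [3.69, 4.57] in the CD226 knockout and 5.41% [4.89, 5.98] in wild type. It was thus lower in the CD226 knockout, with intervals that do not overlap. Cells between the antibody cutoffs, which can be bone marrow progeny or doublets and were not compared, were 4.79% of kept cells in the double knockout and 11% in the TIGIT knockout. The antibody scale also moved between libraries: conventional CD4 cells had a median log2 ratio of 3.50 in the double knockout and 3.15 in the TIGIT knockout, and the part of that shift in the shares was not tested.

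Few genes differed by a fixed fold in all 3 classes. Among them were RNA-binding protein genes, higher in the double knockout. Of endoplasmic reticulum genes, Pdia4 and Mogs, of folding and glycan trimming, were lower in it and Tmem128, of the membrane, was higher. A gene was called shared when its log2 ratio, double knockout over TIGIT knockout, was at least 0.32 above or below 0 in all 3 classes, at a mean of at least 50 CPM in each. That difference is called the fold threshold from here on. Of 2466 genes that entered, 7 were shared and higher (0.284%) and 4 shared and lower (0.162%). In single classes the fold threshold was passed, higher and lower, by 5.38% and 6.05% of genes in Treg-origin cells, 1.69% and 1.26% in conventional CD4 cells and 1.02% and 1.71% in conventional CD8 cells. The Treg-origin class has the fewest UMIs, with a median of 452 per gene over both libraries against 5617 in CD4 and 7923 in CD8 cells.

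Rbm3 and Cirbp, which encode the RNA-binding proteins that mammalian cells induce on mild cooling, were both higher in every class. Rbm3 stood at 1969 CPM in Treg-origin, 2172 in CD4 and 2010 in CD8 cells of the double knockout, against 1226, 1379 and 1320 CPM in the TIGIT knockout. The ratios were 1.61 [1.53, 1.69] in Treg-origin, 1.58 [1.55, 1.60] in CD4 and 1.52 [1.5, 1.54] in CD8 cells, so knockout and wild-type cells had ratios of like size. Cirbp stood at 107, 93.7 and 98.3 CPM in the same classes of the double knockout, against 63.0, 53.9 and 59.0 CPM in the TIGIT knockout, with ratios of 1.7 [1.36, 2.12], 1.74 [1.63, 1.86] and 1.67 [1.58, 1.76]. The second pair did not show it. In the order Treg-origin, CD4 and CD8, Rbm3 had log2 ratios of 0.02, 0.03 and 0.05 there, and Cirbp was somewhat lower in the CD226 knockout at -0.12, -0.34 and -0.23. Rbm3 in conventional CD4 cells of the second pair had 1776 CPM in the CD226 knockout and 1745 CPM in wild type, between the levels of the double and the TIGIT knockout, though on another lane.

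The Rbm3 difference was seen across the range of single cells. Among conventional CD4 cells the 25th percentile of the per-cell level was 1710 CPM in the double knockout, above the 75th percentile of 1687 CPM in the TIGIT knockout. In CD8 cells these percentiles were 1641 CPM in the double knockout and 1615 CPM in the TIGIT knockout. In Treg-origin cells they overlapped, with a 25th percentile of 1232 CPM in the double knockout and a 75th percentile of 1586 CPM in the TIGIT knockout. A class sum alone cannot tell more transcript per cell from more cells with the transcript. Cells with any Rbm3 UMI, after each cell was thinned to 2000 UMIs, were 97% of CD4 cells in the double knockout and 92% in the TIGIT knockout; the mean number of UMIs in such thinned cells was 4.38 and 2.74.

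**Figure D1:**
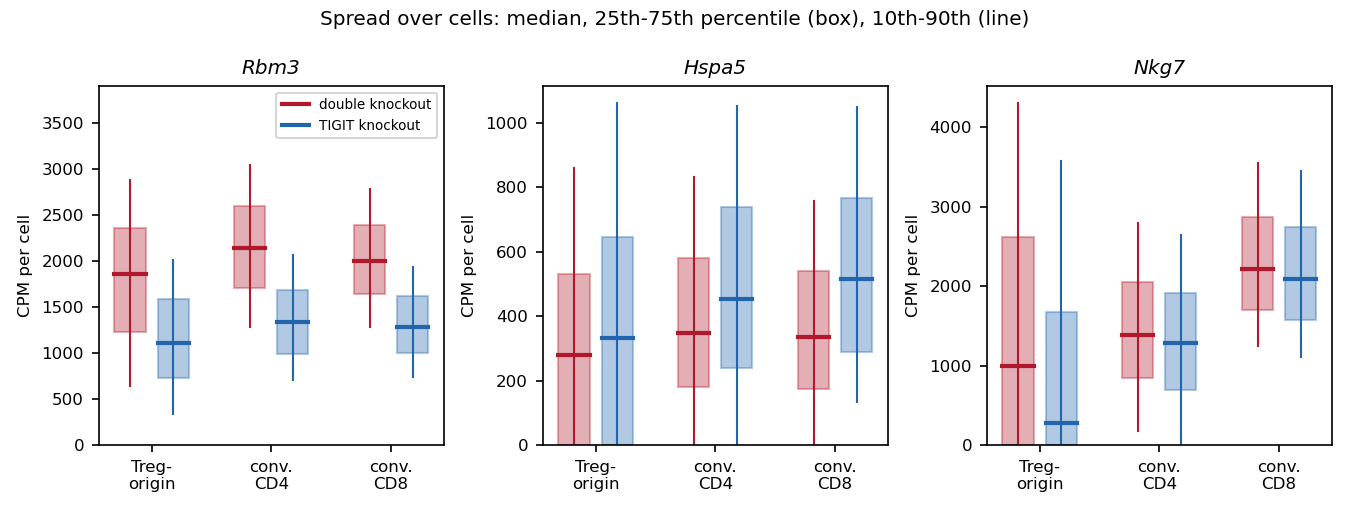
Per-cell CPM of Rbm3, Hspa5 and Nkg7 in the 3 classes; lines in boxes are medians over cells, boxes run from the 25th to the 75th and thin lines from the 10th to the 90th percentile, red for double knockout and blue for TIGIT knockout. The Rbm3 boxes of the conventional classes do not overlap between libraries (1710 above 1687 CPM in CD4 cells), those of Hspa5 overlap with lower medians in the double knockout, and Nkg7 parts the libraries mainly in Treg-origin cells.

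Rsrp1 and S100a4 were the shared genes that also passed the fold threshold in every class of the second pair. Rsrp1, which encodes an arginine- and serine-rich nuclear protein, stood at 423 CPM in Treg-origin, 315 in CD4 and 288 in CD8 cells of the double knockout, against 270, 195 and 180 CPM in the TIGIT knockout. Its log2 ratios were 0.64, 0.69 and 0.68, beside 0.54, 0.37 and 0.40 in the second pair. S100a4, a calcium-binding protein of motile effector and memory T cells, stood at 1571, 2143 and 1449 CPM in the double knockout, against 859, 1420 and 1061 CPM in the TIGIT knockout. Its log2 ratios were 0.87, 0.59 and 0.45, beside 0.49, 0.36 and 0.65 in the second pair. They made 2 of the 7 higher genes, where 0.203% of all genes entered were past that fold in all 3 classes, and 5 of the 7 had positive ratios in all 3 classes there, against 23.1% of all genes.

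The other shared higher genes were smaller. Efr3a, a membrane anchor of a lipid kinase complex, had log2 ratios of 0.45 in Treg-origin, 0.41 in CD4 and 0.35 in CD8 cells, beside 0.11, 0.12 and 0.19 in the second pair. Tmem128, of the endoplasmic reticulum membrane, had 0.32, 0.40 and 0.33, just inside the threshold of 0.32, beside -0.29, -0.03 and 0.06. The seventh had a predicted gene name and is only counted. Itga4 (weakest class 0.30) and Ngly1 (0.29) lay just outside. Where the mean was lowered to 20 CPM, 17 genes were shared and higher, among them Tox, a factor of exhausted T cells. Tox stood at 50.8, 44.2 and 36.0 CPM in Treg-origin, CD4 and CD8 cells of the double knockout, against 36.8, 25.5 and 23.4 CPM in the TIGIT knockout.

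Among the 4 shared lower genes was Gata3, the lineage factor of type 2 helper T cells that Treg cells also use. It stood at 301 CPM in Treg-origin, 151 in CD4 and 75.6 in CD8 cells of the double knockout, against 425, 209 and 110 CPM in the TIGIT knockout. The ratios were 0.709 [0.639, 0.787], 0.723 [0.693, 0.753] and 0.689 [0.655, 0.724]. Gata3 was lower in the second pair too, with log2 ratios of -0.17, -0.36 and -0.13, past the fold threshold in CD4 cells only. Cldnd1, a claudin-like membrane protein gene, had log2 ratios of -0.66, -0.48 and -0.51. Mogs, the glucosidase that makes the first cut in N-glycan trimming, had -0.50, -0.41 and -0.43. Pdia4, a protein disulfide isomerase of the endoplasmic reticulum, had -0.35, -0.51 and -0.58. Of the 4 genes, 3 had negative ratios in all classes of the second pair (31.1% of all genes did) and 0 passed the fold in all 3. With cycling cells left out, which kept few cells, the log2 ratio turned to 0.089 for Gata3 and 0.37 for Pdia4 in Treg-origin cells and to 0.11 for Cldnd1 in CD8 cells. Krtcap2 (-0.31) and Pdia6 (-0.30) lay just outside. At a mean of at least 20 CPM, 9 genes were shared and lower, among them Lgals7, a galectin, at 283, 93.8 and 16.5 CPM in the double knockout against 654, 191 and 42.6 CPM in the TIGIT knockout, and it was lower in all classes of the second pair as well (log2 ratios -0.16, -0.50 and -0.32).

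**Figure D2:**
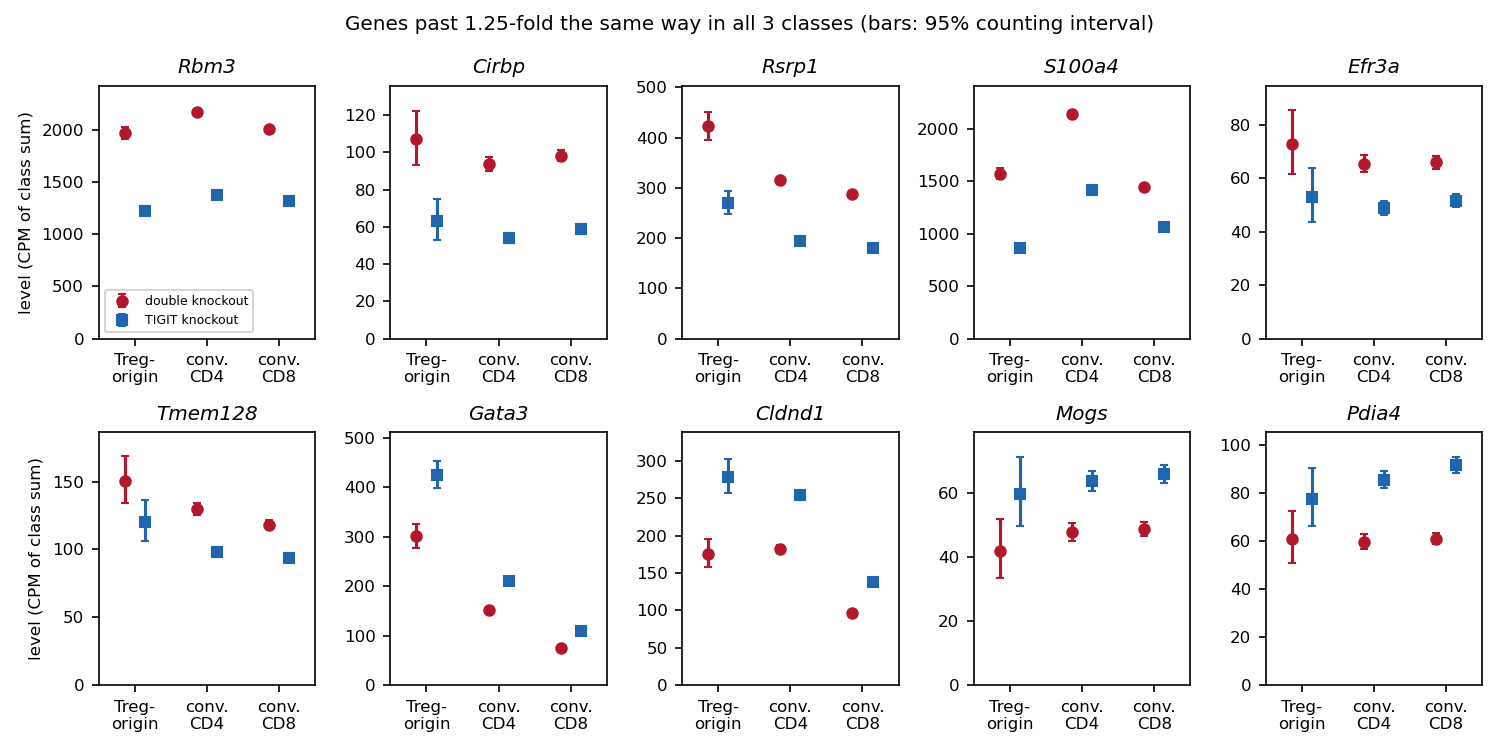
Level in CPM of the class sum, with its 95% counting interval, of 10 shared genes in Treg-origin, conventional CD4 and conventional CD8 cells, red circles for double knockout and blue squares for TIGIT knockout. Rbm3, Cirbp, Rsrp1, S100a4, Efr3a and Tmem128 are higher in the double knockout in every class, and Gata3, Cldnd1, Mogs and Pdia4 lower.

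Pdia4 and Mogs belong to a wider group. The endoplasmic reticulum folds secreted and membrane proteins with chaperones, disulfide isomerases and glycan-trimming enzymes, and when folding falls behind, the unfolded protein response raises their genes together. Part of that response acts through a promoter site, the endoplasmic reticulum stress element, which is bound by the factors ATF6 and NF-Y. A list of 37 such genes was drawn up after the 4 shared genes had been seen, so its counts are a description. Its members of at least 20 CPM were lower past the fold threshold in the double knockout for 3 of 30 in Treg-origin cells (9.23% of all genes), 10 of 30 in CD4 cells (1.36%) and 13 of 29 in CD8 cells (1.67%). None was higher by that fold. The median log2 ratios were -0.14, -0.21 and -0.26, where the medians over all genes of at least 20 CPM were -0.00, 0.01 and 0.00. In the second pair the medians of the list were -0.06, -0.04 and -0.02, with 1, 0 and 0 members past the fold.

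Below are the promoter sites of 4 of the lower genes, each with 15 bases on either side and the match to the element, which reads CCAAT, any 9 bases and CCACG, in capitals. They are shown because these genes lay lower together in both conventional classes. The sequences are RefSeq's for build GRCm38.p6, on the strand of the gene, and end upstream of its start site. A match on the other strand reads CGTGG, any 9 bases and ATTGG.
Hspa5 (chr2:34772010-34772058, plus strand): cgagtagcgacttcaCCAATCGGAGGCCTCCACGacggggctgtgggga
Hsp90b1 (chr10:86705623-86705671, minus strand): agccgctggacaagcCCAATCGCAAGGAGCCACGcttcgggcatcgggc
Pdia6 (chr12:17266476-17266524, plus strand): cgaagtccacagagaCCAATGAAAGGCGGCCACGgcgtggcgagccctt
Creld2 (chr15:88819505-88819553, plus strand): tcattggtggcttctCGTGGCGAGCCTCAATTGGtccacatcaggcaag

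The first 3 carry the element on the strand of the gene and Creld2 on the other strand, with 46 bases between the end of the match and the start site in Hspa5, 193 in Hsp90b1, 79 in Pdia6 and 107 in Creld2. Hsp90b1 holds a second match, on the other strand, 88 bases from the start site. Searched on both strands, the element was found in 39 of 32851 RefSeq promoter windows (0.119%), each of 300 bases with 250 upstream. Of the 34 windows of the list 9 held it (26.5%), which is 9 of the 30 listed genes with a window. The list is of genes of a response that acts in part through this element, so that share is no independent support. Of those 9 genes, 7 had at least 20 CPM. In CD8 cells 5 of these 7 were lower past the fold threshold (Hspa5, Hsp90b1, Calr, Pdia6 and Creld2), and of 18 measured genes whose window lacks the letters, 7 were. In CD4 cells it was 4 of 7 and 5 of 18, and in Treg-origin cells 1 of 7 and 2 of 18. Over all genes of at least 20 CPM the share lower was 1.67% in CD8, 1.36% in CD4 and 9.23% in Treg-origin cells. The Treg-origin counts thus lie near the share over all genes. A match is a description and does not show use.

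Hspa5 encodes BiP, the main chaperone of the compartment. It stood at 399 CPM in Treg-origin, 427 in CD4 and 411 in CD8 cells of the double knockout, against 489, 543 and 586 CPM in the TIGIT knockout. The ratios were 0.815 [0.743, 0.895], 0.786 [0.767, 0.806] and 0.702 [0.687, 0.717]. In CD8 cells of the second pair it had 489 CPM in the CD226 knockout and 524 CPM in wild type, again between the 2 libraries of lane 4. Hsp90b1, the endoplasmic HSP90, stood at 617 CPM in CD8 cells of the double knockout and 827 CPM in the TIGIT knockout. Pdia6, a disulfide isomerase, stood at 247 and 351 CPM there, and Creld2, a stress-induced protein of the same compartment, at 56.0 and 77.0 CPM.

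Creld2 had close levels in Treg-origin cells, with 53.2 CPM in the double knockout and 52.5 CPM in the TIGIT knockout, a ratio of 1.01 [0.770, 1.33]. Xbp1, a transcription factor of the response, was lower in CD8 cells (58.0 CPM in the double knockout against 79.6) and close in Treg-origin cells (89.3 against 94.6 CPM). Members of the glycosylation and translocation machinery had smaller log2 ratios, such as Ddost at -0.20, -0.19 and -0.23 and Sec61b at -0.08, -0.09 and -0.07. Hsp90aa1, a cytosolic chaperone, had log2 ratios of -0.28, -0.39 and -0.32. Of 10 heat shock genes, Hspa5 among them, 0 were lower past the fold threshold in Treg-origin (9.23%), 3 in CD4 (1.36%) and 1 in CD8 cells (1.67%), with medians of -0.18, -0.25 and -0.18. Heat shock genes are among those that change while tissue is taken apart, and the part of handling in these values was not tested.

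**Figure D3:**
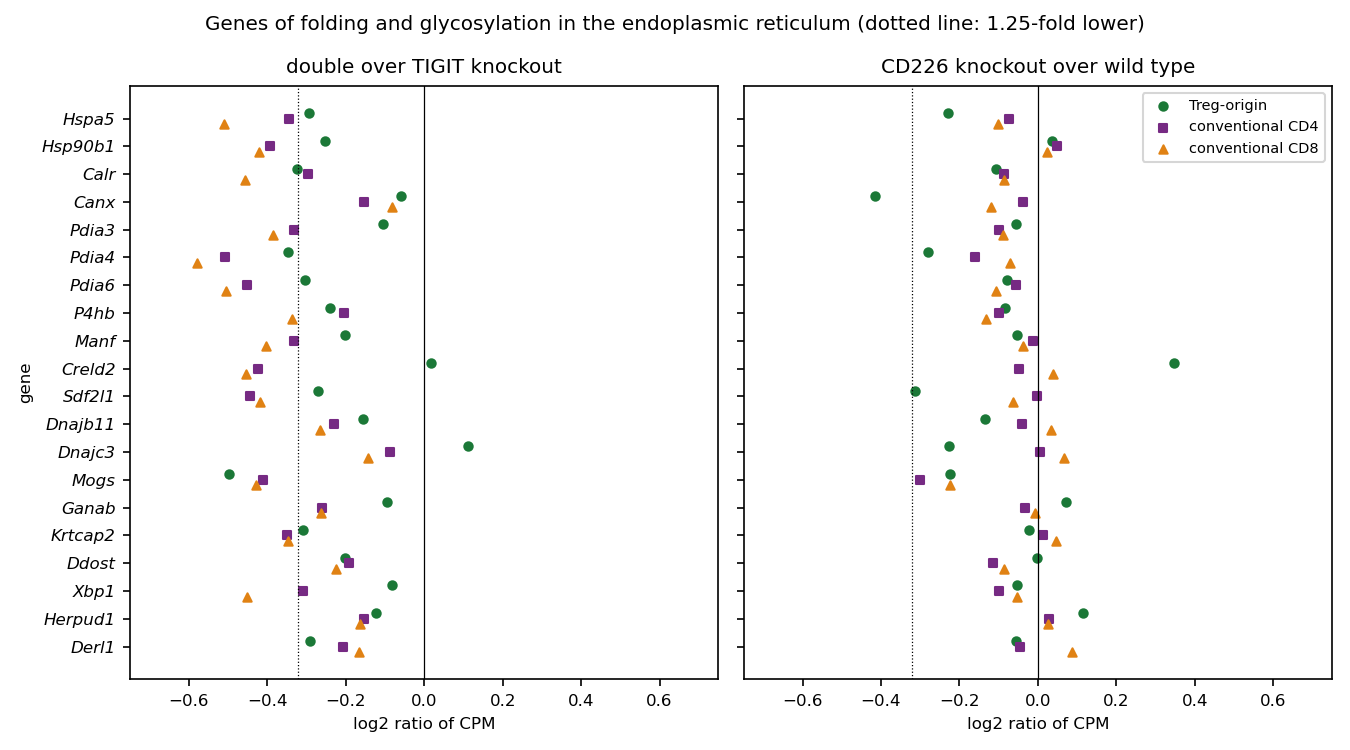
Log2 ratios of 20 genes of folding and glycosylation in the endoplasmic reticulum in the 3 classes, on the left for double knockout over TIGIT knockout and on the right for CD226 knockout over wild type. On the left nearly all points lie below 0 and many conventional ones past the dotted line of the fold threshold, while on the right most lie near 0.

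Genes shared by both conventional classes were counted next, with no regard to Treg-origin cells. Genes higher past the fold threshold in both conventional classes numbered 13 (0.527%) and lower ones 17 (0.689%), by a rule added after the first results. These counts include the 7 and 4 genes shared by all 3 classes. The higher gene with the largest ratio was Ccl5, which encodes the chemokine RANTES of effector and memory T cells. Ccl5 stood at 262 CPM in CD4 and 1073 CPM in CD8 cells of the double knockout, against 88.8 and 392 CPM in the TIGIT knockout, with ratios of 2.96 [2.82, 3.1] and 2.74 [2.69, 2.80]. In Treg-origin cells the levels were close, 1572 and 1438 CPM, with 27.6% of the UMIs of the richer library in 5 cells. Among CD8 cells thinned to 2000 UMIs, 50.6% held a Ccl5 UMI in the double knockout and 26.9% in the TIGIT knockout. Among thinned Treg-origin cells the shares were 26.8% and 15.1%. More Treg-origin cells thus held the transcript in the double knockout, though the class sums were close. In the second pair the log2 ratio was 1.13 in Treg-origin cells, 0.48 in CD4 and 0.02 in CD8 cells, highest in the class where it was closest to 0 here.

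Itga4, the alpha-4 integrin chain that takes T cells into inflamed tissue, was higher in all 3 classes, past the fold in the conventional ones. It stood at 308 CPM in CD4 and 341 in CD8 cells of the double knockout, against 201 and 255 CPM in the TIGIT knockout, and had log2 ratios of 0.28, 0.21 and 0.24 over the 3 classes of the second pair. Sh2d1a, the adaptor SAP of SLAM receptors, had ratios of 1.29 [1.24, 1.34] in CD4 and 1.27 [1.23, 1.32] in CD8 cells, and 1.02 [0.894, 1.16] in Treg-origin cells. Its log2 ratio in the second pair was 0.47 in Treg-origin, 0.32 in CD4 and 0.06 in CD8 cells. On the lower side, besides 10 genes of the endoplasmic reticulum, were Cish, an inhibitor that STAT5 induces, Dtx1, a Notch pathway gene, Satb1, a chromatin organiser of naive T cells, and Ifitm3, an interferon-induced membrane protein. Cish had log2 ratios of -0.36 in CD4 and -0.50 in CD8 cells, Dtx1 -0.51 and -0.55, and Satb1 -0.46 and -0.55, and all 3 had between -0.13 and -0.10 in Treg-origin cells. Ifitm3 differed most in CD8 cells, at 258 CPM in the double knockout and 515 CPM in the TIGIT knockout, with 24.5% and 43.7% of thinned cells holding a UMI. Its log2 ratio was -0.41 in CD4 and 0.08 in Treg-origin cells.

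**Figure D4:**
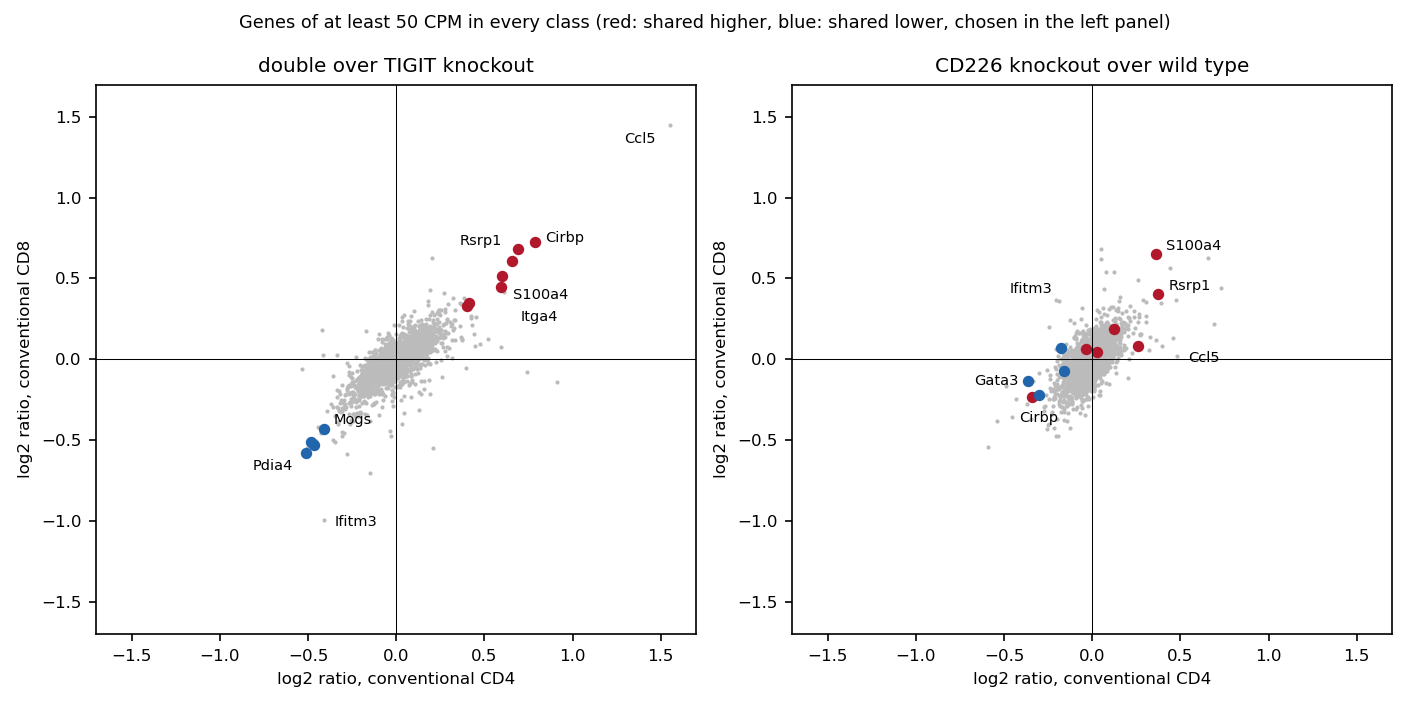
Log2 ratios in conventional CD4 (x) and conventional CD8 cells (y) of the 2466 genes with at least 50 CPM in every class, for double knockout over TIGIT knockout on the left and CD226 knockout over wild type on the right, with shared higher genes in red and shared lower ones in blue. The genes were chosen on the left, where they lie at the ends of the cloud, and on the right S100a4 and Rsrp1 stay high while Cirbp lies below 0 on both axes.

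Genes confined to 1 class were sought next. A gene was called confined when its ratio was at least 1.5-fold in 1 class, with an interval that leaves out 1, and its log2 ratio within 0.20 of 0 in the other classes. At 1.5-fold and 50 CPM, higher and lower, 0.778% and 0.955% of genes passed in Treg-origin cells, 0.396% and 0.036% in CD4 and 0.328% and 0.109% in CD8 cells. In Treg-origin cells, the only ones that differ in CD226, 3 genes were higher (0.122%) and 5 lower (0.203%). In conventional CD4 and CD8 cells the count was 0 in both directions (0.0%). Without a second library of each genotype, these genes have no check on what any 2 libraries would give.

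The 3 higher genes are known from cytotoxic lymphocytes. Nkg7, a granule membrane protein, stood at 1428 CPM in Treg-origin cells of the double knockout and 944 CPM in the TIGIT knockout, a ratio of 1.51 [1.43, 1.60], with log2 ratios of 0.60 here, 0.11 in CD4 and 0.08 in CD8 cells. Thinned to 2000 UMIs, 62.1% of Treg-origin cells held Nkg7 in the double knockout and 45.9% in the TIGIT knockout. Serpinb9, an inhibitor of granzyme B, stood at 71.2 and 44.4 CPM, a ratio of 1.60 [1.23, 2.10]. Serpinb6b, a related serpin, stood at 189 and 122 CPM, a ratio of 1.55 [1.32, 1.83]. In the second pair Serpinb6b was higher too (log2 ratio 0.52), Nkg7 weakly so (0.20), and Serpinb9 was not (-0.12). With cycling cells left out the log2 ratio of Nkg7 turned to -0.088, and 0 of the 8 confined genes were kept. Of the cytotoxicity list, to which those 3 genes belong and which is no independent support, 6 of 13 measured genes were higher past the fold threshold in Treg-origin cells (9.08% of all genes) and 2 were lower (9.23%). The median log2 ratio of that list was -0.042, with 6 of 13 above 0, and its summed level was 9394 CPM in the double knockout and 9666 CPM in the TIGIT knockout. Gzmb, granzyme B itself, had a ratio of 0.904 [0.876, 0.934].

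Of the Treg-origin cells, 5.59% in the double knockout and 4.76% in the TIGIT knockout had more Cd8 than Cd4 UMIs. With these and the cells with Y-linked UMIs left out, 7 genes were confined to Treg-origin cells by the same rule, 6 of them among the 8.

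Of the 5 lower genes, Lag3, an inhibitory receptor through which Treg cells act on antigen-presenting cells, had the lowest ratio. Its level in Treg-origin cells was 92.7 CPM in the double knockout and 174 CPM in the TIGIT knockout, a ratio of 0.532 [0.444, 0.636], while CD4 and CD8 cells both had 1.07. In conventional CD4 cells it stood at 71.3 and 66.5 CPM. Of Treg-origin cells thinned to 2000 UMIs, 13.6% held a Lag3 UMI in the double knockout and 23.5% in the TIGIT knockout. The second pair showed little of it, with 122 CPM in the CD226 knockout and 128 CPM in wild type. Trbc1, 1 of the 2 constant segments of the T cell receptor beta chain, had 699 CPM in the double knockout and 1151 CPM in the TIGIT knockout. In the second pair its log2 ratio was -0.44 in Treg-origin, 0.05 in CD4 and 0.68 in CD8 cells, so there it was not confined to Treg-origin cells. Knl1 of the kinetochore, Ube2f of the neddylation pathway and Sf1, a splicing factor, had ratios of 0.632 [0.495, 0.805], 0.640 [0.487, 0.835] and 0.654 [0.505, 0.842], with log2 ratios of -0.29, -0.18 and -0.39 in the second pair.

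With a narrower rule added later, past the fold threshold in 1 class with an interval that leaves out 1, and within 1.1-fold in the others, 44 genes were higher (1.78%) and 45 lower (1.82%) in Treg-origin cells, and the conventional classes gave 8 genes in all. For 17 of the 44 and 13 of the 45 the interval of the difference from CD4 cells included 0, so a difference between those classes was not shown. In CD4 cells Bcl2, the survival factor, was higher (125 CPM in the double knockout and 89.96 CPM in the TIGIT knockout), with Sh3bgrl and Ptpn22, a phosphatase that restrains receptor signalling (0.122%). Plac8, Klk8 and Carhsp1 were lower in CD4 cells (0.122%), with Plac8 at 149 and 217 CPM. In CD8 cells 0 were higher (0.0%) and 2 were lower (0.0811%): Il2ra, the high-affinity interleukin-2 receptor chain, at 63.8 and 84.6 CPM, and Ptpn6, the phosphatase SHP-1, at 125 and 171 CPM.

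Both chains of the interleukin-18 receptor had their largest ratio in Treg-origin cells and their smallest in CD8 cells. The receptor lets effector T cells answer interleukin-18 with interferon-gamma. Il18r1, the binding chain, stood at 119 CPM in Treg-origin, 170 in CD4 and 137 in CD8 cells of the double knockout, against 47.8, 125 and 130 CPM in the TIGIT knockout. The log2 ratio in Treg-origin cells, 1.30, was larger than in CD4 cells by 0.86 [0.51, 1.20] and larger than in CD8 cells by 1.22 [0.88, 1.56], beyond counting error. Il18rap, the signalling chain, had log2 ratios of 1.24, 0.41 and 0.16. Of thinned Treg-origin cells, 15.8% held an Il18r1 UMI in the double knockout and 8.15% in the TIGIT knockout. Both chains were also higher in Treg-origin cells of the second pair, by less (0.34 and 0.37).

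The list of Th1 and effector factors, to which both chains belong, had 8 of 13 measured genes higher past the fold threshold in Treg-origin cells (9.08% of all genes) and 0 lower, with a median log2 ratio of 0.36. With cycling cells left out that median turned to -0.055, and in the second pair it was -0.016. In CD4 cells 3 of 13 were higher (1.97%) with a median of 0.12, and in CD8 cells 1 of 14 (1.35%), Eomes, with a median of 0.06. Ifngr1, the binding chain of the interferon-gamma receptor, stood at 475 CPM in Treg-origin cells of the double knockout and 318 CPM in the TIGIT knockout, and Cxcr6, a chemokine receptor of tissue T cells, at 325 and 228 CPM. Tbx21, which encodes T-bet, had a ratio of 1.30 [0.844, 2.0], not told from 1 at this depth.

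Ifng, the gene of interferon-gamma, lay in opposite directions by class. In Treg-origin cells it stood at 133 CPM in the double knockout and 58.7 CPM in the TIGIT knockout, with 34.1% of the UMIs of the richer library in 5 cells. In CD4 cells the levels were 289 and 249 CPM, and in CD8 cells 140 and 205 CPM. Gzmk, a granzyme of memory-like T cells, had log2 ratios of -0.76 in Treg-origin, 0.52 in CD4 and 0.86 in CD8 cells, the other way round. Up to 33.3% of its UMIs in the richer library of a class lay in 5 cells. Of thinned Treg-origin cells, 7.06% held a Gzmk UMI in the double knockout and 7.41% in the TIGIT knockout. Ifng and Gzmk are among 6 genes past the fold threshold upward in 1 class and downward in another, with intervals that leave out 1, of 4650 genes with 20 CPM in every class (0.129%). Genes with over 50% of the UMIs of a class in 5 cells had been left out of the 6. In the second pair Ifng had -0.49, 0.15 and 0.06, and Gzmk 1.68, 0.29 and -0.29, so in Treg-origin cells both had the opposite sign there.

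**Figure D5:**
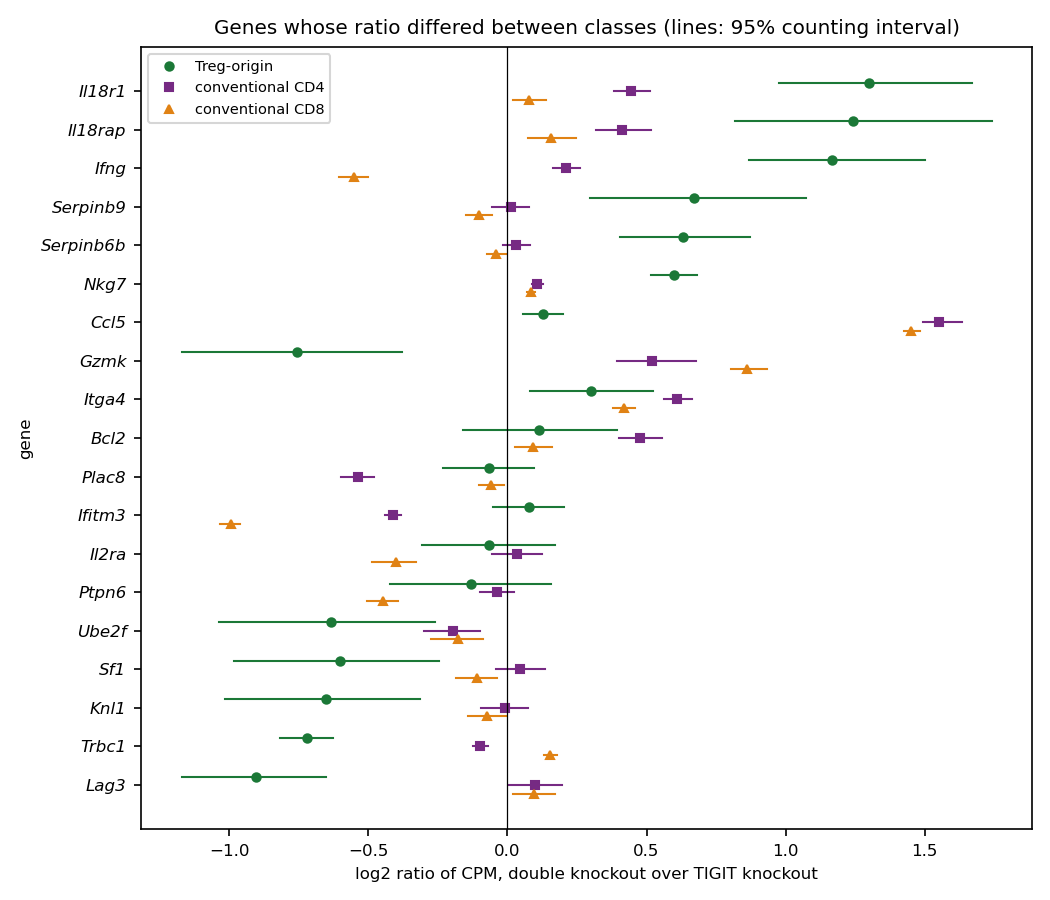
Log2 ratios of CPM, double knockout over TIGIT knockout, with 95% counting intervals, of genes whose ratios differed between Treg-origin (green), conventional CD4 (purple) and conventional CD8 cells (orange). Il18r1 falls off by class, Ccl5 is far above 0 in the conventional classes only, and Lag3 and Trbc1 lie far below 0 in Treg-origin cells only.

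Several other groups were described by their counts. Treg identity genes were mixed in Treg-origin cells, with 2 of 23 higher and 7 lower (9.08% and 9.23% of all genes) and a median log2 ratio of -0.17, beside 0.027 in the second pair. The lower ones included Ebi3, a subunit of interleukin-35 (22.4 CPM in the double knockout and 41.1 CPM in the TIGIT knockout), Lrrc32, which presents latent TGF-beta (16.6 and 29.6 CPM), and Rgs1, a brake on chemokine receptors (124 and 223 CPM). The higher ones were Ctla4 (281 and 201 CPM) and Il1rl1, the interleukin-33 receptor (64.9 and 41.1 CPM). Ctla4 was higher in CD4 conventional cells as well, at 53.1 and 33.5 CPM.

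Interferon-response genes were lower past the fold threshold for 10 of 36 (9.23% of all genes) and higher for 3 of 36 (9.08%) in Treg-origin cells, with Isg15, a ubiquitin-like effector, at 270 CPM in the double knockout and 409 CPM in the TIGIT knockout. In CD4 cells 1 of 24 was lower (1.36%) and 1 higher (1.97%), and in CD8 cells 2 of 24 were lower (1.67%) and 2 higher (1.35%). The medians were -0.14 in Treg-origin, 0.07 in CD4 and 0.14 in CD8 cells, and in Treg-origin cells of the second pair 0.10. Ribosome biogenesis genes were higher for 7 of 23 in Treg-origin cells (9.08%), with 0 lower and a median of 0.20, against -0.17 in the second pair, and near 0 in CD4 (0.04) and CD8 (-0.01) cells. Mitosis genes had medians of -0.24, -0.14 and -0.09 in Treg-origin, CD4 and CD8 cells, and 5 (9.23%), 1 (1.36%) and 1 (1.67%) of 29 were lower past the fold. In the second pair the Treg-origin median was -0.27.

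Inhibitory receptors were mixed in Treg-origin cells, with 4 of 10 higher past the fold threshold (9.08% of all genes) and 1 lower (9.23%). Their median log2 ratio was -0.03, with 5 of 10 above 0, beside 0.12 in the second pair. Pdcd1, which encodes PD-1, was higher in Treg-origin cells (127 CPM in the double knockout and 75.5 CPM in the TIGIT knockout) and in CD4 cells (182 and 120 CPM), and close in CD8 cells (140 and 133 CPM). Cd96, a further receptor for CD155, had 51.7 and 30.1 CPM in Treg-origin cells, a log2 ratio of 0.76, beside 0.06 in CD4 cells. Glycolysis, nuclear respiratory chain and major histocompatibility class I genes had list medians between -0.10 and 0.07 in all classes.

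Markers of other cells were summed by list. The lists for NK cells, gamma-delta T cells, erythroid cells and stroma had 10.4 to 66.5 CPM in any class of either library. Macrophage and monocyte markers had 363 CPM in Treg-origin cells of the double knockout and 566 CPM in the TIGIT knockout, and B and plasma cell markers 218 and 235 CPM. Neutrophil markers differed most in Treg-origin cells, with 10 UMIs in the double knockout and 3700 in the TIGIT knockout, of which 3686 lay in 1 cell. Without the Treg-origin cell richest in them in each library, 6 genes were shared and higher and the same 8 were confined to Treg-origin cells. In the conventional CD4 class the same list had 142 CPM in the double knockout and 4.03 CPM in the TIGIT knockout, and in the CD8 class 6.51 and 83.9 CPM. Its part in the conventional results was not tested. The libraries shared 28 cell barcodes, 0.252% of those of the TIGIT knockout. The gene rules did not use unresolved conventional cells or cells with both CD45 forms, which come from the same libraries. In that order, log2 ratios there were 0.66 and 0.58 for Rbm3, 0.70 and 0.79 for Cirbp and -0.42 and -0.35 for Hspa5. Gata3 (-0.28 and -0.42) and Pdia4 (-0.60 and -0.21) each fell short of the fold threshold in 1 group. The other genes shared by all classes passed it in both. Some genes of the conventional pair fell short, such as Satb1 (-0.18 and -0.17), Ifitm3 (-0.38 and -0.13) and Sh2d1a (0.38 and 0.11).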

How the data were processed

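Per the labels, 10x Chromium 3' v3 libraries with TotalSeq-A antibodies against CD45.1 and CD45.2 were made from sorted donor T cells. The deposited values are UMI counts per gene and cell barcode in filtered matrices of 31053 genes and 2 antibodies, made per the submitters' processing notes with Cell Ranger 3.1.0 and mm10. UMI counts were summed per class and library, scaled to CPM of the class, and compared as log2 ratios with a pseudocount of 1 CPM, using numpy 2.4.6, scipy 1.17.1 and pandas 2.3.3. Ratio intervals are exact conditional intervals of 2 Poisson counts, shares have exact Clopper-Pearson intervals, and differences of log2 ratios have normal intervals from the counts, all at 95%. Cells of 1 library are not replicates, so no p-value was computed, and a fixed fold stands in for a test. edgeR 4.0.16 gave TMM factors for 1 alternative. No doublet caller was used, so doublets among the cells kept were not counted. A total of 0 per-sample columns were left unused.

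The members, thresholds and 33 gene lists were chosen with earlier results of these data known, and a list for the endoplasmic reticulum was added later. Named were Cd226, Tigit and the shared and confined genes, up to 15 per direction or 8 per class and direction, with at most 25% of the UMIs of the richer library in 5 cells and no predicted names. Genes of the added rules were named after their values were seen. Variable, diversity and joining segments of T cell receptors and immunoglobulins, Xist and Y-linked genes were counted apart, constant segments were not. The rules were run on simulated class sums, drawn as Poisson counts from the pooled libraries. Planted changes were 1.8-fold and upward only, larger than the folds the rules ask for. No spread between cells or libraries was put in, so the run does not show how the rules do with it. Of 50 genes planted per rule, 50 were found as shared, and 49, 42 and 41 as confined to Treg-origin, CD4 and CD8 cells. False calls were 2 for Treg-origin cells and 0 for the other rules. No smaller fold was planted, so the run does not show how the rules do near their thresholds. Nor does it measure how far libraries of the same genotype would differ.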

Additional observations from a re-analysis of the deposited data

Results flagged for a closer look

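The following genes, named by a rule, had log2 ratios at least 0.32 from 0 in opposite directions in the double over TIGIT knockout pair and in the CD226 knockout over wild type pair, at a mean of at least 50 CPM in both. The difference between the pairs was not tested, and each value rests on 1 library per genotype. Cirbp in CD4 cells had a log2 ratio of 0.79 in the double over TIGIT knockout and -0.34 in the CD226 knockout over wild type. Ifitm3 in CD8 cells had -0.99 and 0.36 in the same order of pairs. The other 6 were in Treg-origin cells, where counts are lowest: Dcaf13 (0.43 and -0.44), Fmnl1 (0.41 and -0.50), Mrpl11 (0.49 and -0.44), Odc1 (0.39 and -0.41), Pih1d1 (0.47 and -0.43) and Srpr (-0.37 and 0.32). Groups of 1 library allow no check for a sample far from the others.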

How the results depend on the processing

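The shared and confined counts, the ratios of genes named by most rules and the list medians were computed again under 14 other settings. Ratios of genes found only by the narrower rule in Treg-origin cells were not, nor those of genes shared only at 20 CPM. The genes flagged above in Treg-origin cells are thus among those not computed again. Of these settings 2 were added after the data had been seen. Shares were computed again where a setting changed the cells. Counts of the added rules, counts by promoter site, class differences and per-cell values were not. Over all settings and classes 1812 gene ratios and 1065 list medians stayed close to the main value, 233 and 82 moved, and 13 and 1 changed sign. With no filter on CPM, 86 genes were shared and higher, 62 shared and lower, and 210, 3 and 8 confined to Treg-origin, CD4 and CD8 cells; at a mean of at least 20 CPM the first 3 counts were 17, 9 and 59. Confined Treg-origin genes numbered 23 with ribosomal protein and mitochondrial genes left out of the total, 13 with cells weighted equally, 48 with cells thinned to 2000 UMIs and 70 with antibody cutoffs of -1.5 and 3. Thinning also gave 9 shared lower genes and 1 confined to CD8 cells, and the cutoffs 1 confined to CD8 cells. Of the 7 shared higher, 4 shared lower and 8 confined Treg-origin genes, the cutoffs kept 5, 2 and 4, thinning 5, 3 and 5, and equal weighting 6, 3 and 3. The Treg-origin share was 2.93% in the double knockout and 3.55% in the TIGIT knockout with those cutoffs, and in the TIGIT knockout 4.33% with stricter cell filters and 4.47% with thinning. The CD8 share was 56.9% in the double knockout and 50.6% in the TIGIT knockout with stricter filters, 53.3% and 46.6% without the 5% of cells with most UMIs, and 46.8% in the TIGIT knockout with the other cutoffs.

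Leaving out cells with over 0.1% cell cycle UMIs left 38 to 247 cells per class. Shared genes were 15 higher and 13 lower, of which 2 and 0 were among those reported, and confined ones 19, 6 and 28 in Treg-origin, CD4 and CD8 cells, with 0 of the 8 reported for Treg-origin cells among them. The Treg-origin share was 17.4% in the double knockout and 15.4% in the TIGIT knockout, and the CD8 share 24.4% and 13.3%. Sign changes were counted as above. Log2 ratios changed sign in Treg-origin cells for Gata3 (0.089), Pdia4 (0.37), Nkg7 (-0.088), Sf1 (0.58), Ifih1 (-0.83) and the median of the Th1 and effector list (-0.055). They did so in CD4 cells for Carhsp1 (0.69) and Hmmr (1.47), and in CD8 cells for Cldnd1 (0.11), Capn2 (0.61), Creld2 (0.021), Il2ra (1.34), Manf (0.35) and Ndfip2 (-0.30). The cause was not tested. No paired analysis was possible because each genotype has 1 library.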
